A study of Mus musculus with 36 samples.

Results

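The collagen genes were the 44 features, of 40205 in the count tables, whose symbol has the form Col, a number, a and a number. They comprised 11 fibrillar collagens and 33 others, namely 9 fibril-associated collagens (FACITs), 6 of type IV, 6 of type VI, 4 transmembrane collagens, 3 short-chain network collagens of types VIII and X, 2 multiplexins, 2 of types XXVI and XXVIII, and type VII. The rule reads the symbol and no measured value.

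Neural stem cells (NSCs) were taken from the dorsal telencephalon of C57BL/6J (Ai14) mouse fetuses at gestational day 12.5, kept as neurosphere cultures and sorted by fetal sex, with tissue of 1 sex pooled within a pregnancy. Each of 3 pregnancies, named sets 3, 4 and 5, gave a female and a male culture, hence 6 cultures. Each culture was grown for 5 days with 0 (control), 120 or 320 mg/dL ethanol, and RNA of the cells and of the extracellular vesicles (EVs) that they released into the medium was sequenced after depletion of ribosomal RNA. This gave 18 cell and 18 EV libraries, 6 for each location and dose. Each library came from 4 flasks taken as 1 sample, the labels give the genotype as wild type, and the neurospheres had been passaged, so the 3 doses of a culture share its cells and its litter.

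Collagens are secreted or membrane-bound trimers whose chains carry glycine at each triplet of residues, which lets them wind into a triple helix. Fibrillar collagens have one long uninterrupted helix and assemble into the fibrils of skin, bone and cartilage. Type IV collagens, whose helix is broken by short interruptions, form the sheet-like network of basement membranes, including that on which the neuroepithelium of the developing brain rests.

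Sequences of the coding exons show how the fibrillar and type IV genes differ in their helix. An exon of 54 bases encodes 6 glycine triplets, and such exons made up 41.2 to 55% of the coding exons of the 11 fibrillar genes against 2.13 to 5.66% in the 6 type IV genes. The FACITs, at 6.15 to 44.4%, overlap the fibrillar range. The first 54-base coding exon made wholly of such triplets is shown 5′ to 3′ for the 2 fibrillar genes highest in EVs, the fibrillar gene highest in cells and the 2 type IV genes highest in cells, with every in-frame glycine codon in capitals (GRCm39, the build of the deposited files).
Col2a1 (chr15:97896426-97896479, minus strand): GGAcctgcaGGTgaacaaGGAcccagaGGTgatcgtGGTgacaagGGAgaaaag
Col5a3 (chr9:20712364-20712417, minus strand): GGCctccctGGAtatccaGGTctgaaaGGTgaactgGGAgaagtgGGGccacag
Col11a1 (chr3:113901930-113901983, plus strand): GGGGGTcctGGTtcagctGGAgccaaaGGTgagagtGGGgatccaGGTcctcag
Col4a5 (chrX:140358984-140359037, plus strand): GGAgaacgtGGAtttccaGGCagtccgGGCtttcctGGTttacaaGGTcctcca
Col4a6 (chrX:139999440-139999493, minus strand): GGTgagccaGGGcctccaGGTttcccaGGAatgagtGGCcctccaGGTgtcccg
The single exons look alike, and the classes differ in how far the repeat runs. The longest unbroken run of triplets was 339 in Col2a1, 337 in Col5a3 and 338 in Col11a1, against 42 in Col4a5 and 45 in Col4a6.

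EV libraries were far shallower than cell libraries, at 959217 to 5509952 total counts (median 3825686) against 26566061 to 55282322 (median 37813815). Collagens received 400 to 6319 counts in an EV library and 5765 to 35718 in a cell library. The 3 EV libraries of the female culture of set 4 had 975131 to 1548111 counts, and the one at 320 mg/dL had the lowest scaling factor of all libraries, 0.382, against a median of 0.797 in EVs. Levels are given below in CPM (counts relative to library size) scaled by trimmed mean of M values (TMM) unless stated, and this scaling raises every gene of that library relative to its share of the total. Over 10 markers of NSCs the summed level was 2655 to 4162 CPM in cells and 936 to 1382 CPM in EVs, with Vim the highest and Sox2, a defining marker, listed at 0 in all libraries. The 10 markers of meningeal fibroblasts, a cell type rich in fibrillar collagen, summed to 7.60 to 36.5 CPM in cells, with Foxc1 giving a mean of 19.9 CPM and Ogn at 0, and to 6.90 to 30.5 CPM in EVs. Markers of pericytes summed to 13.2 to 36.2 CPM in cells and 58.7 to 240 CPM in EVs, mostly from Notch3, and those of endothelium to 1.39 to 4.50 CPM and 3.32 to 57.5 CPM. Their part in the results below was not tested. In whole pellets, fewer cells of a type and less RNA per cell cannot be told apart.

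In cells, 43 of the 44 collagens had at least 1 count in every library, and Col10a1 had none in any cell or EV library. GENCODE places an exon of Nt5dc1 over 651 bases of Col10a1 on the opposite strand. The most abundant was Col4a5, a chain of basement membranes, with 49.4 to 114 CPM (median 64.2). It gave 20.1 ± 2.94% of collagen counts (SD, n = 18) and ranked first in 13 of 18 cell libraries. Col11a1, a minor fibrillar chain that nucleates thin fibrils, followed at 7.78 to 103 CPM (median 39.0) and ranked first in 4. In the remaining cell library, that of the male culture of set 4 at 320 mg/dL, Col2a1 ranked first. Col4a6, the partner chain of Col4a5, stood at 16.2 to 58.5 CPM (median 21.8) and the FACIT chain Col9a3 at 8.66 to 47.6 CPM (median 21.8). Col5a2, a fibril-diameter regulating chain, spanned 5.77 to 37.2 CPM (median 23.6). The FACITs Col16a1, at 11.5 to 36.5 CPM (median 16.6), and Col12a1, at 4.06 to 36.8 CPM (median 12.01), and the ubiquitous basement membrane chain Col4a1, at 5.47 to 30.6 CPM (median 11.4), completed the 8 highest. These ranges overlapped widely below Col4a5, so that the order from the second to the eighth gene differs between libraries. The order is by CPM, which was not divided by exon length.

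Chains of the common fibrils of connective tissue were near the bottom of the list in cells. Col1a1 and Col1a2, which together make type I collagen, had 2 to 111 and 1 to 21 counts in a cell library. Col3a1, which joins them in soft tissues, had 2 to 17. Per kb of exon, the scale on which genes can be set beside each other, the mean was 7.12 CPM per kb for Col4a5, 3.70 for Col11a1, 0.0859 for Col1a1, 0.0153 for Col3a1 and 0.0119 for Col1a2.

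EVs held a different set. Col2a1, the chain of cartilage collagen, ranked first among collagens in all 18 EV libraries. It had 83 to 5271 counts, at 89.7 to 2057 CPM (median 794), against 2.14 to 58.7 CPM (median 9.89) in cells. It alone gave 61.6 ± 24.3% of EV collagen counts (SD, n = 18), from 14.6% to 86.9%. Next came Col5a3, a chain of type V collagen, at 12.9 to 105 CPM (median 49.6). It was followed by the FACIT Col20a1 at 18.7 to 46.2 CPM (median 30.2), the transmembrane Col25a1 at 5.72 to 38.5 CPM (median 13.6), a collagen studied in neurons, and the type VI chain Col6a6 at 5.44 to 60.9 CPM (median 13.2). For Col2a1, Col5a3 and Col20a1 the lowest EV library lay above the highest cell library. This order too is by CPM. Per kb of exon, genes outside these 5 stood above Col25a1 (mean 1.22 CPM per kb), such as Col28a1 (2.25), Col23a1 (1.92) and Col14a1 (1.66). Only 22 of the 44 collagens had a median of 10 or more counts in EVs, against 41 in cells, so most other EV values rest on few counts.

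**Figure D1:**
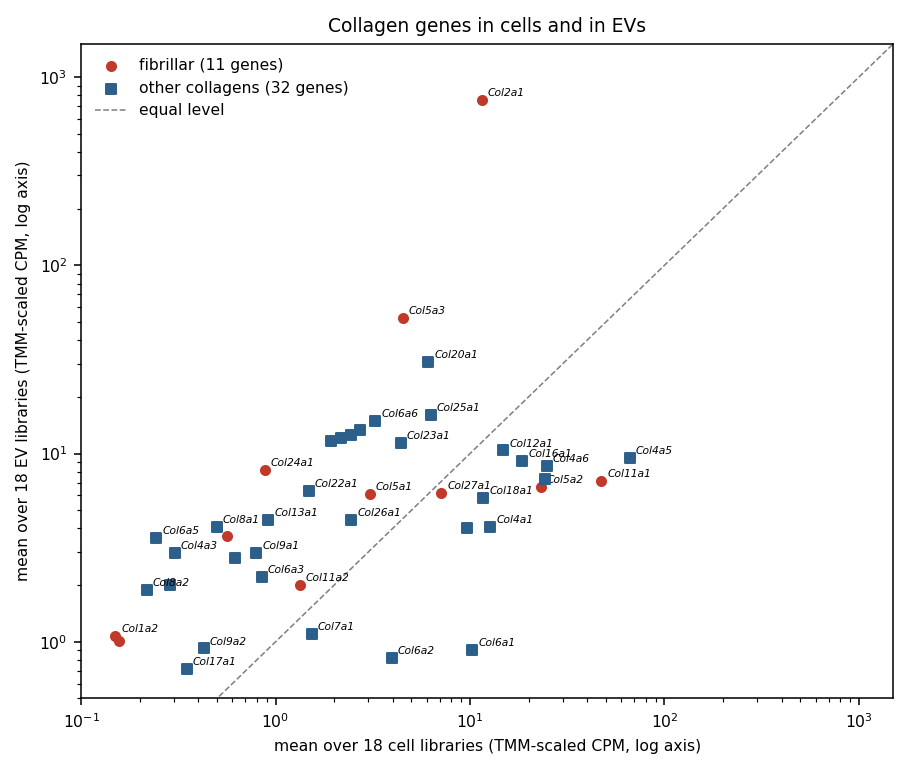
Mean level of 43 collagens in cells (x axis) and in EVs (y axis), both TMM-scaled CPM on log axes over 18 libraries each. Col10a1 is left out because it had no counts. Col2a1 stands alone at 755 CPM in EVs, and the genes highest in cells, such as Col4a5 and Col11a1, lie below the dashed line of equal level.

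The comparison of EVs with cells asked which transcripts are richer in vesicles than in the cells that release them. Of the 44 collagens, 37 passed the filter on low counts and 33 passed the test, 22 higher and 11 lower in EVs (edgeR quasi-likelihood test over all 36 libraries, Benjamini-Hochberg adjusted p under 0.05). Over all 15281 genes tested, 80.5% passed, 38.4% higher and 42.2% lower. With DESeq2 without the filter, 40 of 43 collagens passed, 29 higher and 11 lower, where 54.8% of all genes were higher and 20.4% lower. The median log2 fold change was 1.23 over the tested collagens and -0.080 over all genes. With CPM of library totals, 18 collagens were higher and 14 lower (22.4% and 60.8% of all genes), and the median over all genes moved to -0.88. Without the 6 EV libraries under 2000000 counts, 38 of 41 passed, 26 higher and 12 lower (35.8% and 41.7% of all genes). A gene could pass the filter through EV or cell libraries alone. Genes that entered mainly through EVs, such as Col6a5, Col4a3 and Col1a1, could hardly come out lower. They are part of the filtered counts and of the median of 1.23, which therefore lean to higher in EVs. The filter was not passed by 7 collagens, namely Col1a2, Col3a1, Col8a2, Col9a2, Col10a1, Col15a1 and Col17a1.

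Col2a1, at the levels given above, differed most. On the log2 scale it was higher in EVs by 6.01 (SE 0.47), or 64.5-fold, with an adjusted p of 3.24e-14 in edgeR's test. All 6 cultures had more in EVs, with means over doses of 152 to 1388 CPM in EVs and 3.05 to 27.6 CPM in cells, which do not overlap. Col2a1 lies at chr15:97873483-97902689 (GRCm39), and 393 bases of its exons are overlapped on the opposite strand by Gm46536. That feature had 0 counts in all 36 libraries.

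Col6a5, a type VI chain of restricted distribution, had 1 to 17 counts in EV libraries and 6 to 20 in the much deeper cell libraries, or 0.602 to 13.5 CPM against 0.119 to 0.403 CPM. The groups do not overlap, and the log2 fold change was 3.53 (SE 0.30). It passed the filter through EV libraries, where it was high, so a difference was needed for it to enter and its p is not given. Col5a3 followed with 12.9 to 105 CPM in EVs against 2.32 to 6.93 CPM in cells and a difference of 3.50 on the log2 scale (SE 0.21, adjusted p 1.55e-17). Col4a3, a type IV chain of kidney and other specialised basement membranes, was covered by 0 to 19 reads per EV library and 8 to 31 per cell library. Its CPM overlapped because 1 EV library had none, and the log2 fold change was 3.22 (SE 0.22), with the same limit as for Col6a5. Each was higher in EVs in all 6 cultures.

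At the other end, Col4a5 had 1 to 73 counts per EV library, or 1.65 to 26.0 CPM, all below the 49.4 to 114 CPM of cells. EVs differed from cells by -2.95 on the log2 scale (SE 0.24, adjusted p 9.31e-14 in edgeR's test). Col11a1 had 2.04 to 18.6 CPM in EVs against 7.78 to 103 CPM in cells, which overlap, with a difference of -2.67 on the log2 scale (SE 0.34, adjusted p 7.46e-09). Col5a2 followed at 2.42 to 13.4 CPM against 5.77 to 37.2 CPM with -1.88 (SE 0.26), and Col4a1 at 1.09 to 9.92 CPM against 5.47 to 30.6 CPM with -1.73 (SE 0.27). All 4 were lower in EVs in every culture. Col6a1 had a larger fall on average, by 3.62 on the log2 scale (SE 0.74, adjusted p 3.82e-05), but was lower in EVs in only 4 of 6 cultures.

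The classes did not move as blocks. Among 9 fibrillar collagens tested, 5 were higher in EVs (Col2a1, Col5a3, Col24a1, Col1a1 and Col5a1) and 2 lower (Col11a1 and Col5a2), with a median log2 fold change of 0.84. Among 28 others, 17 were higher and 9 lower, with a median of 1.27. Over all genes tested, 38.4% were higher and 42.2% lower, and 70.4% were higher among those under 2 CPM in cells. These shares stand beside all the class counts given here. Type IV divided by gene pair, although Col4a3 entered through EV libraries and could hardly have come out lower. Col4a3 and Col4a4 were higher, the latter with a log2 fold change of 2.24 (SE 0.24), while Col4a1, Col4a2, Col4a5 and Col4a6 were lower. Type VI divided too, with Col6a3, Col6a4, Col6a5 and Col6a6 higher and Col6a1 and Col6a2 lower. Col6a5 had the same limit as Col4a3. All 3 transmembrane collagens tested were higher, as were 5 of 8 FACITs, against 2 lower (Col9a3 and Col16a1). Col1a1, with 2 to 11 counts in an EV library, was higher by 2.37 on the log2 scale (SE 0.43). It too passed the filter mainly through EV libraries, where it was high, so its p is not given. Col4a2 was lower, at -1.34 (SE 0.22, adjusted p 1.39e-06).

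**Figure D2:**
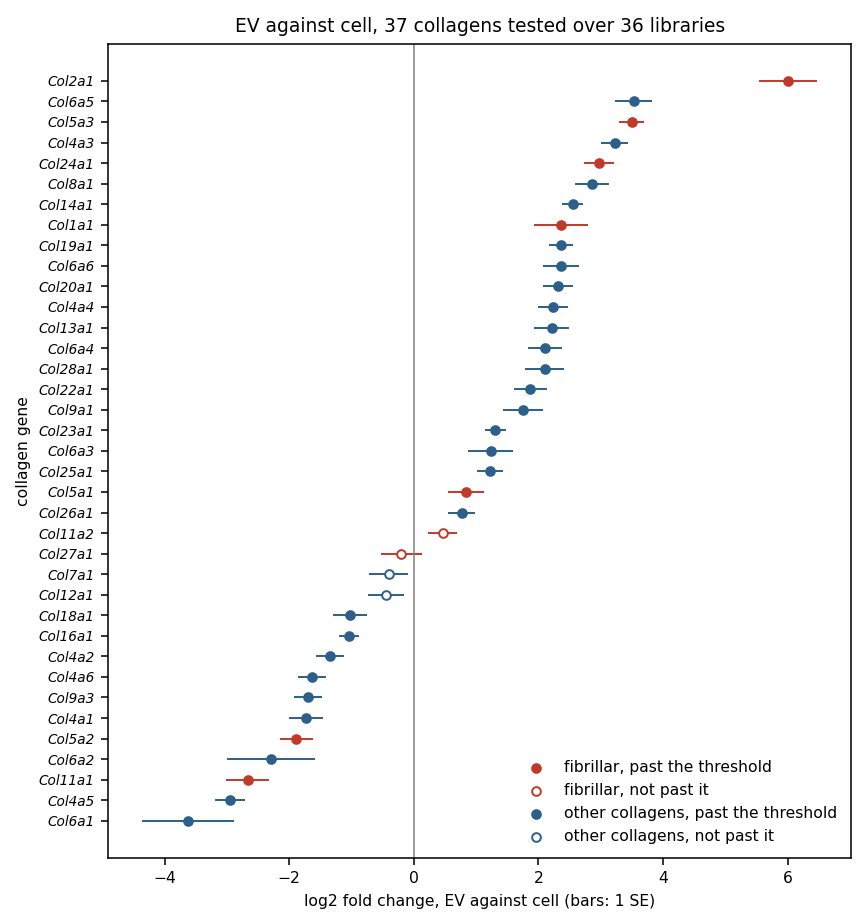
Log2 fold change between EVs and cells (x axis) for the 37 collagens tested, ordered by size, with bars of 1 SE. Filled points passed the test and open points did not. Filled points include genes that entered mainly through EV libraries, such as Col6a5, Col4a3 and Col1a1. Fibrillar genes spread from 6.01 for Col2a1 to -2.67 for Col11a1, and Col6a1 lies lowest at -3.62.

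The direction followed the level in cells. Of 13 tested collagens with a mean under 2 CPM in cells, 11 were higher in EVs and 0 lower, while 70.4% of all genes at that level were higher and 7.93% lower. Of the 13 between 2 and 10 CPM, 10 were higher and 2 lower, against 39.2% and 35.1% of all genes. Of the 11 at 10 CPM or more, 1 (Col2a1) was higher and 9 lower, against 23.5% and 60.9%. Cell level and fold change share the cell measurement, so these are descriptions. A gene this low in cells entered mainly through EV libraries where it was high, so that few lower calls were possible in the lowest group. The middle of the collagens was narrower in EVs and the extremes were wider. The upper quartile was 8.55 times the lower one in cells (1.35 against 0.157 CPM per kb of exon) and 2.36 times in EVs (1.22 against 0.520), while the full range was 0.0260 to 7.12 CPM per kb in cells and 0.0746 to 80.7 in EVs.

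Fibrillar collagens took 28.9 ± 6.45% of collagen counts in cells (SD, n = 18; 19.5 to 45.1%) and 71.9 ± 19.6% in EVs (34.4 to 90.9%). The ranges overlap, since the female culture of set 4 and the male culture of set 5 had 34.4% and 41.6% in EVs at 0 mg/dL. Without Col2a1 the shares were 26.0 ± 6.00% in cells and 29.3 ± 6.55% in EVs, a difference below the SD of either. By summed CPM per kb of exon the shares were 22.1 ± 5.31% and 68.4 ± 20.1%. By dose the EV share averaged 65.8 ± 22.8% at 0, 71.9 ± 21.5% at 120 and 78.0 ± 15.6% at 320 mg/dL (SD, n = 6 each). It was higher at 320 than at 0 mg/dL in each of the 6 cultures, with the smallest difference in the male culture of set 3 (67.3% and 70.2%) and the largest in the male culture of set 5 (41.6% and 77.5%). Cells averaged 28.8 ± 5.37%, 28.2 ± 5.78% and 29.6 ± 8.83%. Without Col2a1 the EV share averaged 27.6 ± 8.93% at 0, 30.1 ± 5.93% at 120 and 30.2 ± 5.08% at 320 mg/dL. No test was made of these shares, which are sums over chosen genes.

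**Figure D3:**
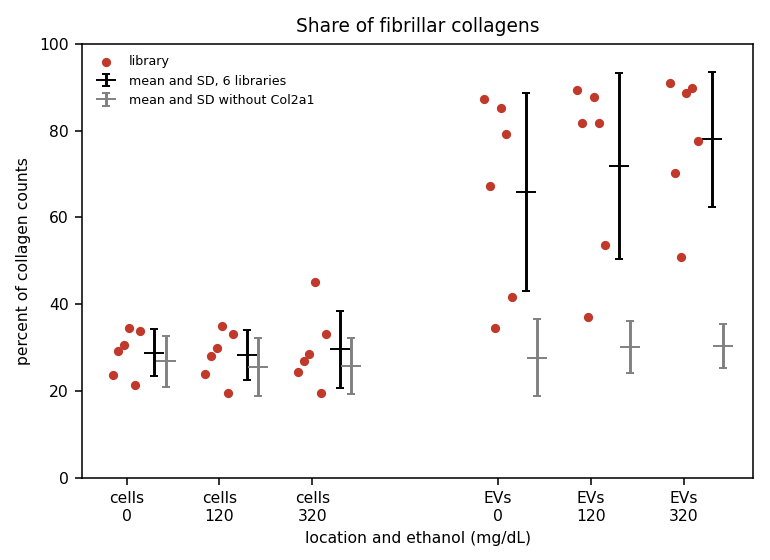
Percent of collagen counts on the 11 fibrillar genes (y axis) in each library by location and dose, with mean and SD over 6 libraries in black and the same without Col2a1 in grey. EV points lie between 34.4 and 90.9%, and the grey means of cells and EVs lie between 25.5 and 30.2%.

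The dose comparisons asked whether ethanol changed these levels, with each culture as its own control. None of the 41 collagens tested in cells, nor of the 27 tested in EVs, passed the threshold at 120 or 320 mg/dL against 0, or between the ethanol doses (edgeR quasi-likelihood test with culture as a block). Few genes of any kind did: 0% of 17792 at 120 and 0.0393% at 320 mg/dL in cells, and 0.00842% and 0.0842% of 11880 in EVs. Between 320 and 120 mg/dL it was 0% in both. At an unadjusted p under 0.05 there were 5 collagens at 120 and 8 at 320 mg/dL in cells, and 1 at each dose in EVs. Over all genes tested there were 443 and 1525 of 17792 in cells, and 745 and 1410 of 11880 in EVs. Between the ethanol doses there were 6 collagens in cells and 1 in EVs, and 633 and 440 genes over all tested. With DESeq2, 2 collagens passed at 320 mg/dL in cells (of 0.648% of genes) and 1 in EVs (of 4.84%).

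Col2a1 in EVs had the largest difference at 320 mg/dL. The female culture of set 3 had 1007, 1357 and 1463 CPM at 0, 120 and 320 mg/dL and that of set 5 had 815, 1293 and 2057 CPM. The male culture of set 4 had 773, 908 and 1067 CPM, and that of set 5 had 96.6, 186 and 667 CPM. The remaining cultures were less even, at 230, 906 and 301 CPM in the male culture of set 3 and 89.7, 91.6 and 276 CPM in the female culture of set 4. All 6 were higher at both doses than at 0, although the dose groups overlap because cultures differ more than doses. The log2 difference was 1.28 (SE 0.37, unadjusted p 0.00343, adjusted p 0.169) at 320 and 0.75 (SE 0.37, adjusted p 0.794) at 120 mg/dL by edgeR's test, neither past the threshold. Relative to library totals, Col2a1 in EVs of the female culture of set 4 stood at 83.8, 85.1 and 105 CPM at 0, 120 and 320 mg/dL. DESeq2 (adjusted p 0.0147) and edgeR without the filter on low counts (adjusted p 0.00132, where 0.699% of genes passed) put the gene past the threshold at 320 mg/dL. In cells it stood at 2.14 to 13.7 CPM at 0 and 4.45 to 58.7 CPM at 320 mg/dL (log2 difference 0.66, SE 0.33, adjusted p 0.602). The 58.7 CPM came from the male culture of set 4, and the other 5 cell libraries at 320 mg/dL reached 11.997 CPM at most.

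Col5a3 in cells was nearest to the threshold among the dose, ratio and sex comparisons. In the female cultures of sets 3, 4 and 5 it was at 6.24, 5.88 and 6.52 CPM without ethanol and 3.96, 3.80 and 4.76 CPM at 320 mg/dL. In the male cultures it was at 6.18, 3.28 and 3.00 CPM without ethanol and 4.70, 2.32 and 2.34 CPM at 320 mg/dL. All 6 cultures were lower at 320 mg/dL than without ethanol, and the groups overlap across cultures. At the lower ethanol dose, 4 of 6 cultures were lower than without ethanol and 2 were higher. The log2 difference at 320 mg/dL was -0.49 (SE 0.085, unadjusted p 5.22e-05, adjusted p 0.0850 in edgeR's test). DESeq2 gave an adjusted p of 0.0013. Col9a3, a chain of the FACIT type IX collagen, followed with 13.0 to 47.6 CPM at 0 and 8.66 to 37.1 CPM at 320 mg/dL, lower in 6 of 6 cultures, with a log2 difference of -0.37 (SE 0.081, adjusted p 0.196; DESeq2 adjusted p 0.0161).

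**Figure D4:**
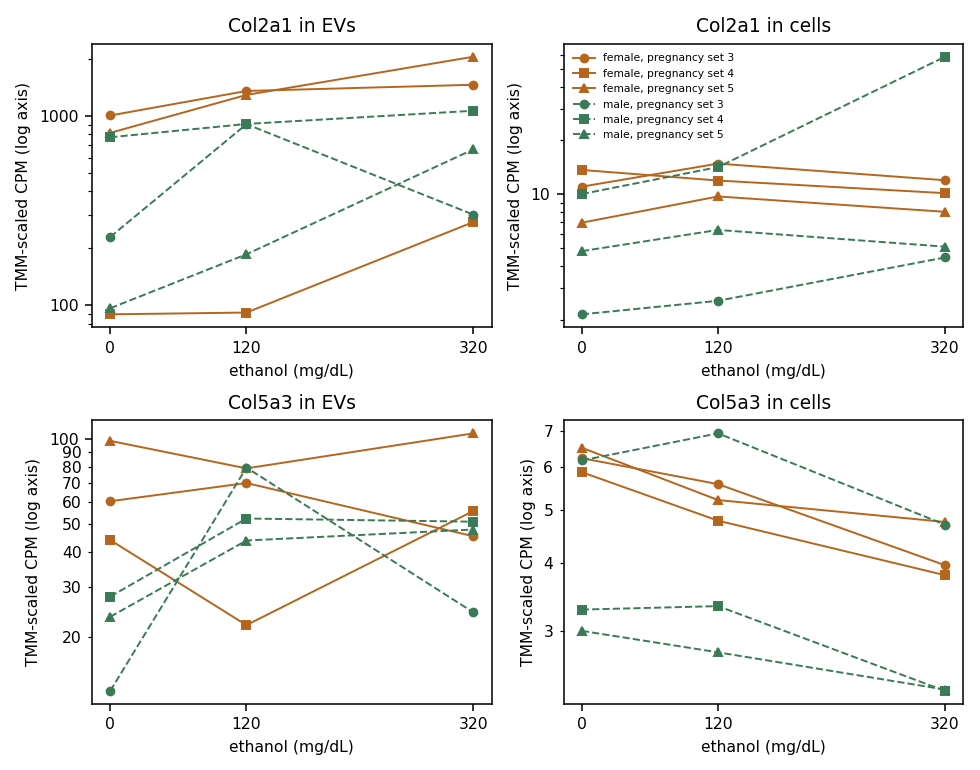
Col2a1 (top) and Col5a3 (bottom) in EVs (left) and cells (right), in TMM-scaled CPM on log axes against ethanol in mg/dL, with 1 line per culture. Col2a1 in EVs and Col5a3 in cells differed one way between 0 and 320 mg/dL in all 6 cultures, and cultures lie further apart than doses.

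The other collagens of the smallest unadjusted p in each comparison lay far from the adjusted threshold. At 120 mg/dL in cells these were Col4a3 (log2 difference -0.50, SE 0.17) on 8 to 31 counts and the FACIT Col19a1 (0.27, SE 0.11), both with an adjusted p of 1.00 in edgeR's test. Between 320 and 120 mg/dL in cells they were Col5a3 (-0.37, SE 0.086) and the short-chain Col8a1 (-0.92, SE 0.30), again at 1.00. In EVs they were the fibrillar Col5a1 at 120 mg/dL (-0.88, SE 0.34, adjusted p 0.792) and Col9a3 at 320 mg/dL (0.38, SE 0.22, adjusted p 0.542). Between the doses in EVs they were Col25a1 (-0.79, SE 0.29, adjusted p 1.00, past the threshold without the filter, where 0.432% of genes passed) and Col5a2 (-0.35, SE 0.22, adjusted p 1.00). Col5a1 at 0 mg/dL had 1 EV library at 33.1 CPM where the other 5 had 2.05 to 7.87 CPM.

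Of the 7 genes described in every comparison, Col4a1 in cells went from 5.94 to 17.9 CPM at 0 to 5.70 to 30.6 CPM at 320 mg/dL (log2 difference 0.36, SE 0.11, adjusted p 0.361) and Col4a2 differed by 0.36 (SE 0.14, adjusted p 0.496), each higher in 4 of 6 cultures. Col11a1 differed by -0.15 (SE 0.16) and Col1a1 by 0.35 (SE 0.35), higher in 3 of 6. At 120 mg/dL in cells the log2 differences were 0.13 for Col4a1, 0.10 for Col4a2, -0.22 for Col11a1, 0.74 for Col1a1 and 0.28 for Col2a1. Between 320 and 120 mg/dL they were 0.23, 0.26, 0.072, -0.39 and 0.38 in the same order. In EVs, Col4a1, Col4a2 and Col11a1 differed by 0.61, 0.35 and 0.23 at 120, by 0.090, 0.29 and 0.13 at 320, and by -0.52, -0.059 and -0.10 between the doses, with adjusted p values of 0.823 or more. Col1a1, Col1a2 and Col3a1 were too low in EVs, and the latter pair in cells too, to enter these tests.

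Over all collagens tested, log2 differences at 320 against 0 mg/dL spanned -0.80 to 0.66 in cells (median 0.041, all genes -0.0055) and -0.45 to 1.28 in EVs (median 0.096, all genes 0.012). Fibrillar collagens had medians of 0.064 in cells and 0.20 in EVs, and the others 0.036 and 0.061.

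The ratio of EV to cell level was tested between doses as an interaction, and none of 27 collagens passed at either dose (0.0169% of 11838 genes did at 120 and 0.0253% at 320 mg/dL). At an unadjusted p under 0.05 there were 2 collagens at each dose, and 605 genes at 120 and 1221 at 320 mg/dL over all 11838 tested. At 320 mg/dL the smallest p values were those of Col9a3 (log2 ratio difference 0.77, SE 0.21, adjusted p 0.174 in edgeR's test) and Col5a3 (0.94, SE 0.33, adjusted p 0.281), with a higher ratio in 6 of 6 cultures for both. At 120 mg/dL they were Col9a3 (0.56, SE 0.21, adjusted p 0.914) and Col8a1 (-1.13, SE 0.46, adjusted p 0.929). For Col2a1, Col4a1, Col4a2 and Col11a1 the ratio differed by 0.63, -0.25, -0.051 and 0.29 at 320 and by 0.48, 0.49, 0.25 and 0.46 at 120 mg/dL, with SEs of 0.32 to 0.52.

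For most collagens in cells, the highest and lowest culture differed by more than the doses of 1 culture did. The exceptions were Col1a2 (1.504-fold between cultures against a median of 2.30-fold between doses), Col3a1 (1.91 against 2.31), Col5a1 (2.02 against 2.35) and Col6a5 (1.70 against 1.82). In cells, Col6a1 had a mean over doses of 41.2 CPM in the male culture of set 3 and 0.361 CPM in the male culture of set 4, a ratio of 114, whereas doses of 1 culture differed by a median of 1.21-fold. Col6a2, whose chain assembles with it, ranged from 13.6 to 0.193 CPM over the same cultures. Col11a1 ranged 7.50-fold, with 90.8 CPM in the male and 12.1 CPM in the female culture of set 5, and Col12a1 6.70-fold. Col4a5 varied least among the abundant genes, 1.82-fold. The culture highest in Col6a1 also had the highest summed meningeal fibroblast markers, 36.02 CPM, and the others had 9.48 to 25.3 CPM. The culture lowest in Col6a1 had 19.7 CPM of these markers. The female culture of set 5, with 0.732 CPM of Col6a1, had 9.48 CPM. Over all cell libraries the sum had a median of 20.9 CPM and Foxc1 alone a mean of 19.9 CPM. The part of these markers in the differences was not tested. In EVs the spread of Col6a1 over cultures was 0.463 to 1.30 CPM on 0 to 6 counts.

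Among chains that assemble together or lie side by side, some kept narrower proportions in cells than others. Col4a1 and Col4a2 are transcribed in opposite directions with overlapping 5′ ends on chromosome 8. In GENCODE their start sites lie 355 bases apart, and they share 311 exon bases on opposite strands. Col4a1 took 46.6 to 66.5% of their joint counts in cells (mean 55.6 ± 5.18%, SD, n = 18) while the joint count went from 366 to 2891. Col4a5 took 66.1 to 77.3% of its joint counts with Col4a6 (73.4 ± 2.60%), whose start lies 1282 bases away in the opposite direction on chromosome X. Col6a1 took 58.7 to 87.1% of its joint counts with Col6a2. In the other couples the share varied more relative to its mean, though not always in SD, which was 7.39% for Col6a1. Col1a1 took 30.8 to 90.9% of its joint counts with Col1a2, on 3 to 124 counts. Col4a3 took 4.68 to 18.02% (SD 4.44%) of its joint counts with Col4a4, which also starts head to head with it, on 73 to 316 counts. Col9a1 took 1.23 to 6.82% (SD 1.72%) of its joint counts with Col9a3. In EVs these shares were wider, at 23.5 to 61.9% for Col4a1 on 5 to 42 joint counts and 16.7 to 75% for Col4a5 on 6 to 120. The mean for Col4a5 in EVs was 49.8 ± 13.7%, and Col4a6 was lower in EVs by 1.63 on the log2 scale (SE 0.22) where Col4a5 was lower by 2.95.

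**Figure D5:**
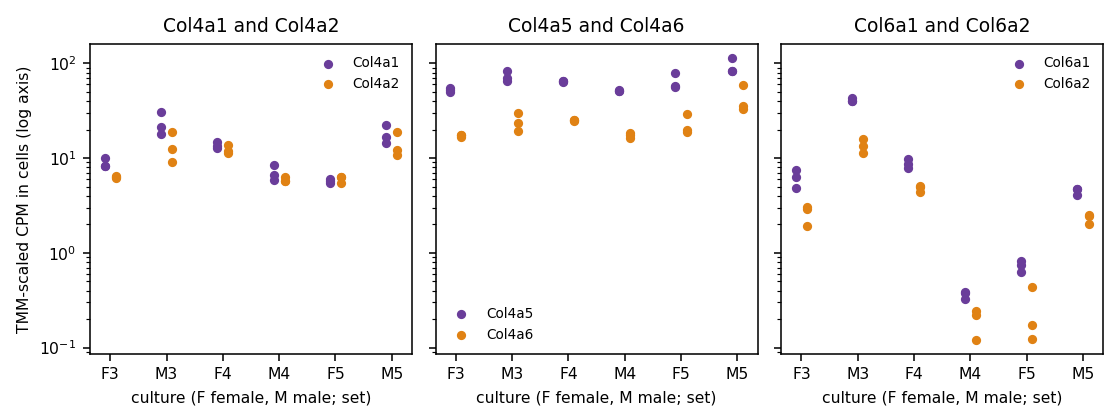
Level in cells (TMM-scaled CPM, log axis) of Col4a1 and Col4a2, Col4a5 and Col4a6, and Col6a1 and Col6a2 in each culture (F female, M male, with the pregnancy set), 3 points for the 3 doses. The members of each couple follow each other from culture to culture, most widely for Col6a1, from 0.323 to 42.8 CPM.

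The windows around the start sites of Col4a1 and Col4a2 (250 bases before to 50 after, RefSeq, GRCm38.p6) have 78 bases in common, shown because they belong to the promoter window of both genes. The RefSeq starts lie closer together than the GENCODE starts given above, around which such windows would not overlap. Capitals mark the GC box, GGGCGG, searched on both strands.
Shared window of Col4a1 and Col4a2 (chr8:11312777-11312854, plus strand): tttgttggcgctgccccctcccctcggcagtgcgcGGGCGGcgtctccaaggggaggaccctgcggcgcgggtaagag
A GC box was present in 23 of 38 windows of collagen genes (60.5%), from 35 genes that could be matched, and in 35.7% of all 32851 windows. A CCAAT box was present in 34.2% against 37.4% and a TATA box, TATAAA, in 13.2% against 13.6%, each on either strand. These matches are descriptions of the letters in the windows.

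The sex comparison took the 3 doses of a culture together and set 3 female against 3 male cultures with the litter as a block. None of 43 collagens passed in cells (0.0334% of 20972 genes did) and none of 36 in EVs (0% of 14847). At an unadjusted p under 0.05 there were 7 collagens in cells, where 1632 of 20972 genes were, and 16 in EVs. In EVs, 35 of 36 collagens were higher in females by the fitted difference, with a median log2 difference of 0.86 where all genes had 0.039, and 3074 of 14847 genes had an unadjusted p under 0.05. The share of all genes higher in females, or of genes as low in counts as the collagens, was not counted. Without the filter on low counts, 939 of all 29604 genes passed as higher in females and 158 as lower. Marker lists of other cell types had positive medians too, at 1.41 for endothelium (3 of 6 genes tested), 1.17 for microglia (2 of 6), 1.09 for meningeal fibroblasts (3 of 10), 0.65 for pericytes (3 of 6) and 0.64 for the oligodendrocyte lineage (6 of 6), against 0.27 for neurons and 0.083 for NSCs. Among the collagen pathway lists described below, the median was 0.96 for procollagen processing and 0.63 for folding and export. It was 0.13 for collagen receptors, 0.037 for collagen degradation and -0.21 for prolyl and lysyl hydroxylation. None of these genes passed the threshold, and their part in the collagen values was not tested. In cells the median was -0.21 and 18 of 43 were higher in females.

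Col4a5 had the smallest p in EVs. Female cultures of sets 3, 4 and 5 averaged 7.68, 17.6 and 17.2 CPM and male cultures 2.99, 3.95 and 7.25 CPM, higher in females in 3 of 3 litters, and the groups do not overlap, the closest being 7.68 and 7.25 CPM. The log2 difference was 1.67 (SE 0.26, adjusted p 0.199 in edgeR's test). Col25a1 averaged 13.4, 31.7 and 20.7 CPM in females and 9.59, 8.89 and 11.5 CPM in males, without overlap, with 1.33 (SE 0.24, adjusted p 0.199). Both genes were picked for their small p, and with 3 cultures per sex a lack of overlap is easily reached. The share of all genes without overlap was not counted. The sexes differed most in depth in set 4, whose female EV libraries had 975131 to 1548111 counts and whose male ones had 4011829 to 4395037. Without set 4, 4 collagens passed in EVs, namely Col25a1, Col2a1, Col4a5 and Col5a3, where 3.57% of all genes did, and without the filter on low counts 9 did (3.71% of genes). DESeq2 called 2 in cells (1.93% of genes) and 0 in EVs. Taking the 9 female and 9 male libraries as separate samples gave 13 collagens in EVs, all higher in females, and 8 in cells, 4 of them higher, but 27.1% and 17.3% of all genes, and libraries of 1 culture are not independent.

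In cells the smallest p values were those of Col12a1, with 5.54, 10.2 and 5.04 CPM in female and 14.4, 20.2 and 33.7 CPM in male cultures (log2 difference -1.77, SE 0.37, adjusted p 0.449 in edgeR's test), and Col6a6, with 5.13, 4.83 and 5.34 CPM against 0.666, 2.01 and 1.55 CPM (1.89, SE 0.41, adjusted p 0.449). Neither overlaps between the sexes, with the same limits as for the 2 genes in EVs. Of the genes described throughout, Col11a1 differed by -1.71 (SE 0.63) in cells and 1.09 (SE 0.38) in EVs. Col1a1, Col2a1, Col4a1 and Col4a2 differed by -0.18, 0.43, -0.80 and -0.52 in cells and by 1.04, 0.87, 0.91 and 0.62 in EVs, and Col1a2 and Col3a1 by -0.21 and 0.14 in cells. No collagen passed a test of whether ethanol or location acted differently in the sexes (lowest adjusted p 0.183).

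Genes that make, export, process, bind or degrade collagen were described from 5 lists. Of 15 enzymes and cofactors of prolyl and lysyl hydroxylation, which stabilise the helix and prepare cross-links, 11 were lower and 1 higher in EVs, with a median log2 fold change of -1.38, where 42.2% of all genes were lower and 38.4% higher. Plod2, a lysyl hydroxylase, fell from 67.7 ± 16.0 CPM in cells to 6.02 ± 1.95 CPM in EVs (SD, n = 18 each), and Colgalt1, which glycosylates hydroxylysine, from 41.6 ± 10.7 to 6.56 ± 2.74 CPM. Crtap, a subunit of the prolyl 3-hydroxylase complex, was the one that was higher, at 24.7 ± 10.4 against 9.21 ± 2.72 CPM. Of 8 genes of folding and export tested, 7 were lower and 1 higher (median -1.96), against the same shares of all genes. Serpinh1, the collagen chaperone of the endoplasmic reticulum, had 128 ± 41.3 CPM in cells and 9.10 ± 3.48 CPM in EVs, and so differed by -3.75 on the log2 scale (SE 0.18, adjusted p 1.03e-19 in edgeR's test). Kdelr3, an endoplasmic reticulum retrieval receptor, was lower by 2.29 and Creb3l1, a transcription factor of secretory cells, higher by 0.63.

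Of 9 processing and cross-linking genes tested, 6 were higher and 1 lower in EVs (median 0.84), where 38.4% of all genes were higher and 42.2% lower. Adamts2, which removes the amino propeptide of procollagen, had a log2 fold change of 2.95 (SE 0.37) and Tll1, a relative of the carboxyl propeptidase Bmp1, 2.65 (SE 0.22), while Bmp1 itself had -1.94 (SE 0.11). Collagen receptors were divided, 4 of 9 higher and 3 lower, near the shares of all genes. Itgb1, the shared beta subunit of the collagen-binding integrins, had 434 ± 37.5 CPM in cells and 28.8 ± 7.84 CPM in EVs, Itga2 was lower by 1.85, and Itga10 and Mrc2 were higher by 1.58 and 0.61. Of 5 degradation genes tested, 4 were lower and 1, Mmp16, higher by 0.91, with Mmp14 at -1.63 and Reck, an inhibitor, at -0.62. None of these lists had a member past the threshold in any dose, ratio or sex comparison.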

How the data were processed

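RNA of EV pellets, prepared by ultracentrifugation, and of matched cell pellets was sequenced with a stranded kit after ribosomal depletion. The deposited values are raw read counts per gene for 40205 features, which the authors made by trimming with Trimmomatic, alignment to mm39 with STAR and counting with HTSeq. The strand setting of the counting and the annotation release are not given in the sources used here, and reads of overlapping opposite genes may not be separated. Depth was 959217 to 5509952 counts in EV and 26566061 to 55282322 in cell libraries, so low EV counts limit the precision.

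Counts were tested as deposited with edgeR 4.0.16 (R 4.3.3), using TMM scaling, filterByExpr with a minimum count of 10 and a minimum total of 15, the quasi-likelihood test and Benjamini-Hochberg adjustment over all genes tested, with a threshold of 0.05. EVs were compared with cells over all 36 libraries with location, sex and dose as terms and no block, so p-values there treat the 3 libraries of a culture as separate samples. Doses and EV to cell ratios were compared with culture as a block, and sexes on counts summed over doses with pregnancy as a block. DESeq2 1.42.0, other scalings, no filter, thinning, other blocks and leaving out each pregnancy were alternatives. Levels are TMM-scaled CPM, and were divided by exon length (GENCODE, GRCm39) only where given per kb. Ranks by level used CPM that was not divided by length. The code was tested on simulated data.

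The labels pair libraries by culture and pregnancy. Deviations from the group means of libraries of 1 culture correlated at 0.436 to 0.793 in cells and 0.0083 to 0.460 in EVs between ethanol and control. Female and male libraries of 1 pregnancy, the block of the sex tests, correlated at -0.524 to 0.205 in cells (2 of 9 over 0.1) and -0.490 to 0.156 in EVs (1 of 9). Both libraries of such a pair enter the same group mean, which lowers their correlation. These values therefore cannot be set beside those of libraries of 1 culture. EV libraries correlated with cell libraries at a median of 0.066.

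The members and lists were chosen with earlier results of these data known. Genes named are the 8 highest in cells and 5 highest in EVs, the 4 largest changes each way between EVs and cells that held in all 6 cultures, the 2 of smallest p in each other comparison, and Col1a1, Col1a2, Col2a1, Col3a1, Col4a1, Col4a2 and Col11a1 throughout. Pathway genes are the 2 largest changes each way. Other genes named were chosen after their values were seen.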

Additional observations from a re-analysis of the deposited data

Results flagged for a closer look

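Within each location and dose, 1 of 6 libraries stood far from the other 5 (gap to the nearest value over the range above Dixon's 0.625) in 17 of 144 groups, over 24 measures. That limit corresponds to about 1 group in 20 for independent normal values. CPM is not normal and often rests on few counts here, and groups share libraries, so that rate does not apply. No explanation was tested. Of the 17 groups, 7 are the EV library of the female culture of set 4 at 320 mg/dL, which has the scaling factor of 0.382. It had 18.6 CPM of Col11a1 (others 2.72 to 8.23), 30.4 of Col12a1 (4.42 to 8.76), 32.1 of Col19a1 (5.60 to 14.3) and 18.6 of Col1a1 on 11 counts (1.63 to 2.74). It also had 32.1 CPM of Col25a1 (others 6.49 to 15.9), 3.38 of Col4a3 (1.77 to 2.19) and 60.9 of Col6a6 (5.44 to 17.5).

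The same culture at 0 mg/dL had 38.5 CPM of Col25a1 in EVs (others 5.72 to 16.8). EVs of the female culture of set 5 at 0 mg/dL had 33.1 CPM of Col5a1 (2.05 to 7.87). EVs of the male culture of set 3 at 120 mg/dL, with 959217 counts, had 4.96 CPM of Col1a1 (1.46 to 2.57) and 4.96 CPM of Col3a1 (0 to 1.10).

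In cells, the male culture of set 4 at 320 mg/dL had 58.7 CPM of Col2a1 (others 4.45 to 11.997) and the male culture of set 5 at that dose had 58.5 CPM of Col4a6 (16.2 to 30.1). At 320 mg/dL the female culture of set 5 had 2.14 CPM of Col1a1 (0.0784 to 0.578), the male culture of set 3 had 4.21 CPM of Col5a1 (1.18 to 2.18) and the female culture of set 3 had 1.02 CPM of Col8a1 (0.169 to 0.347). Without ethanol the male culture of set 3 had 36.5 CPM of Col16a1 (11.5 to 18.3).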

How the results depend on the processing

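Of the counts of collagens and shares recomputed under the alternatives, 112 kept their side of the threshold or stayed close, 9 came past it, 1 was weaker and 4 moved. Of values of single genes, 672 were kept, 18 came past the threshold and 25 turned sign. The cause of the exceptions was not tested, apart from thinning, which left 9 collagens to test between EVs and cells (9 passed; 78.5% of all genes did). The EV to cell pairing block gave 33 of 37 tested (79.9% of all genes passed), summing over doses with a block 34 of 43 (70%), and control libraries alone 29 of 38 (63.8%). Without the male set 4 cell library at 320 mg/dL, chosen after seeing the data like the omission of shallow EV libraries, 26 were tested and 24 passed (81% of all genes). DESeq2 called 2 collagens at 320 mg/dL in cells, 1 in EVs and 2 between the sexes in cells. No filter gave 1 at 320 against 0, 1 at 320 against 120 mg/dL and 9 between the sexes in EVs. The sexes as 9 against 9 libraries gave 8 in cells and 13 in EVs, and leaving out a pregnancy 0 to 4 in EVs. The fibrillar share moved to 35.95% in cells without Col4a5, 22.1% per kb, and 29.3% in EVs without Col2a1.

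No log2 difference of the 7 genes followed throughout that turned sign had passed the threshold. In cells these were Col2a1 at 320 against 120 mg/dL without the male set 4 library (-0.070) and Col4a2 there after thinning (-0.023). With library totals in EVs they were Col11a1 at 120 (-0.031) and 320 mg/dL (-0.18) and Col4a1 at 320 mg/dL (-0.19). Without the replicate block they were Col11a1 at 320 mg/dL in EVs (-0.011) and, by sex in cells, Col1a1 (0.51) and Col2a1 (-0.083), and with 9 against 9 libraries Col1a1 (0.075). No count of collagens past the threshold between doses, ratios or sexes changed with the block.

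Leaving out each pregnancy gave these ranges for differences that turned sign. In cells at 320 against 0 mg/dL, Col1a1 ranged from -0.24 to 0.68 and Col11a1 from -0.29 to 0.034. In cells at 320 against 120 mg/dL, Col1a1 ranged from -1.02 to 0.036 and Col2a1 from -0.0038 to 0.73. In EVs against 0 mg/dL, Col11a1 ranged from -5.08e-05 to 0.37 at 120 and from -0.16 to 0.38 at 320 mg/dL, and Col4a1 from -0.020 to 0.27 at 320 mg/dL. In EVs at 320 against 120 mg/dL, Col4a2 ranged from -0.051 to 0.076 and Col11a1 from -0.53 to 0.38. For the ratio at 320 mg/dL, Col2a1 ranged from -0.072 to 1.00 and Col4a2 from -0.13 to 0.30. By sex, Col1a1 ranged from -1.27 to 0.85, Col1a2 from -0.55 to 0.052 and Col2a1 from -0.28 to 1.16 in cells, and Col2a1 from -0.34 to 2.19 in EVs.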
